A study of Bos taurus with 6 samples.

Results

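RORA and BHLHE40 are transcription factors of the circadian clock, and they were followed here on 6 arrays of white blood cell RNA from cattle. All probe sets annotated with RORA or BHLHE40 as their single gene symbol were taken, which gave 3 probe sets for RORA and 1 for BHLHE40, or 4 of the 12763 probe sets on the table. The 3 arrays after cold (numbered 1, 2 and 3) and the 3 before it (numbered 4, 5 and 6) came from 3 female heifers of the Sanhe breed out of 30 in the study. The labels describe 3 hours outdoors at -32 °C and then 15 hours in a cowshed at 5 °C, and all animals ate a total mixed ration in a shared cowshed. They name neither the arrays that share an animal nor the clock time of either blood draw. The labels name no genotype, allele or agent other than cold that differs between the groups.

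The circadian clock is a feedback loop in which CLOCK and BMAL1 (ARNTL) switch on the PER and CRY genes, whose proteins then switch CLOCK and BMAL1 off. RORA is a nuclear receptor that binds DNA elements in promoters such as that of BMAL1 and raises transcription there, where the REV-ERB receptors lower it. BHLHE40, also called DEC1, is a basic helix-loop-helix repressor that binds E-boxes, the elements used by CLOCK and BMAL1. In mice and humans both factors also act in blood cells. RORA serves T cells and innate lymphoid cells, and BHLHE40 shapes cytokine production of T cells and macrophages and is induced by hypoxia.

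The arrays hold RNA of mixed leukocytes, and marker genes of the main types were bright. Mean log2 intensity over all 6 arrays was 11.7 for the T cell gene CD3D, 10.3 for the B cell gene CD79A, 8.97 for the monocyte gene CD14 and 13.2 for the neutrophil gene S100A8. The T helper cell gene CD4 was dim, at 5.49. PF4 of platelets was bright too, with a mean log2 intensity of 12.5 after cold and 12.6 before. Some arrays stood apart irrespective of group. The after 2 and before 6 arrays had a correlation of 0.995 over probe sets with 4 differing more than 2-fold, while after 2 and after 3 had 0.874 with 4867. Median log2 intensity was lowest on after 3, at 7.25, and highest on after 2, at 7.49. No further normalization removed this in the main fit. In such a mixture, fewer cells of a type and less RNA per cell cannot be told apart.

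Neither clock factor passed the test for a difference between the arrays after and before cold. With limma, which fits a linear model to the log2 values of every probe set, 0 of the 4 probe sets had an adjusted p under 0.05, as did 0 of all 12763 (0%). At an unadjusted p under 0.05 there were also 0 of 4, beside 63 probe sets or 0.494% of the table. That count of 63 was 5 without after 3, 10 without before 5, 27 without before 4, 39 without after 1 and 1787 without after 2. The groups overlapped in all 4 probe sets, whereas 4.38% of all probe sets had groups that did not overlap. Mean differences reached 1.5-fold in 0 of 4, beside 6.81% of all probe sets lower and 0.227% higher by that much. The RORA means were lower after cold in all 3 probe sets, and 47.6% of all probe sets had a lower mean. The BHLHE40 mean was higher.

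The brightest RORA probe set, Bt.24444.1.A1_at, had intensities of 64.8, 121 and 30.6 on the after 1, 2 and 3 arrays, against 85.8, 83.7 and 95.1 on before 4, 5 and 6. The 3 arrays before cold lay close together, while those after cold held the highest and the lowest value of all 6. On the log2 scale the mean was 5.96 ± 1.00 after cold and 6.46 ± 0.10 before (SD, n = 3 arrays per group). The difference of -0.50 ± 0.46 (SE) had a 95% interval from -1.57 to 0.56 (limma, adjusted p = 1.00), and an exact two-sided permutation test gave p = 0.5, where the smallest p that 3 against 3 arrays allow is 0.1. As a fold this is 0.706, with an interval from 0.338 to 1.48. Without the after 3 array the difference was 0.010, and without after 2 it was -0.98 (limma, unadjusted p = 0.0195, adjusted p = 0.286). In that fit 14.0% of all probe sets had an unadjusted p under 0.05. Over all alternatives run, its adjusted p lay between 0.286 and 1.00.

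The other RORA probe sets share a single source sequence, so they may not be independent measurements of the gene. One of them, Bt.24444.2.S1_a_at, carries the suffix that Affymetrix gives to probe sets matching several transcripts of a gene. It had intensities of 63.6, 67.8 and 35.2 after cold (arrays 1, 2 and 3), against 66.1, 51.7 and 67.6 before (arrays 4, 5 and 6). Here after 3 alone stood low, and after 1 and after 2 lay within the range of the arrays before cold or just above it. Its means were 5.74 ± 0.52 after and 5.94 ± 0.21 before cold (SD over 3 arrays per group), and the difference was -0.20 ± 0.32 (SE; 95% interval -0.95 to 0.54; limma, adjusted p = 1.00; exact permutation p = 0.7). It was 0.10 without after 3, -0.38 without after 2, -0.51 with array weights and -0.10 with quantile normalization. The array weights ran from 0.0019 on after 1 to 30.7 on before 4.

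The dimmest, Bt.24444.2.S1_at, had intensities of 19.3, 33.6 and 14.0 after cold and 24.8, 21.1 and 34.1 before, in the same order of arrays. The after 2 and before 6 arrays were nearly equal and high, and after 3 and after 1 were the lowest. Its means were 4.38 ± 0.64 after and 4.71 ± 0.35 before cold (SD over 3 arrays per group), with a difference of -0.32 ± 0.37 (SE; 95% interval -1.18 to 0.53; limma, adjusted p = 1.00; exact permutation p = 0.4). The difference was -0.038 without after 3, -0.67 without after 2, -0.13 without before 6 and -0.19 with quantile normalization.

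All RORA probe sets lay in the lower part of the intensity range. By mean log2 intensity, 25.9% of all probe sets were dimmer than Bt.24444.1.A1_at, 19.8% dimmer than Bt.24444.2.S1_a_at and 5.70% dimmer than Bt.24444.2.S1_at. Detection calls were not used here, so how much of these intensities is background was not measured. The 3 probe sets put their lowest value on the same array, after 3, which also held the lowest value of 35.7% of all probe sets. Their highest value was on after 2 for the first and second named and on before 6 for the dimmest. Of all probe sets, 25.4% had their highest value on after 2 and 17.1% on before 6.

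The single BHLHE40 probe set, Bt.23123.1.S1_at, lay in the upper part of the intensity range, with 78.4% of all probe sets dimmer. Probe sets differ in how strongly they bind, so this does not order the 2 genes by RNA level. Its intensities were 326, 508 and 742 on after 1, 2 and 3, against 351, 421 and 520 on before 4, 5 and 6. The arrays after cold again enclosed those before, with after 1 the lowest and after 3 the highest of all 6. After 3 also held the highest value of 30.0% of all probe sets, and after 1 the lowest of 8.31%. The mean was 8.96 ± 0.59 after and 8.73 ± 0.28 before cold (SD over 3 arrays per group), and the difference was 0.23 ± 0.35 (SE; 95% interval -0.58 to 1.03; limma, adjusted p = 1.00; exact permutation p = 0.7). As a fold this is 1.17, with an interval from 0.669 to 2.04. The log2 difference was -0.064 without after 3, 0.09 without before 4, 0.53 without after 1 and 0.37 without before 6. With array weights it was 0.81, where after 1 had a weight of 0.0019, before 4 one of 30.7 and the others 1.20 to 3.62.

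**Figure D1:**
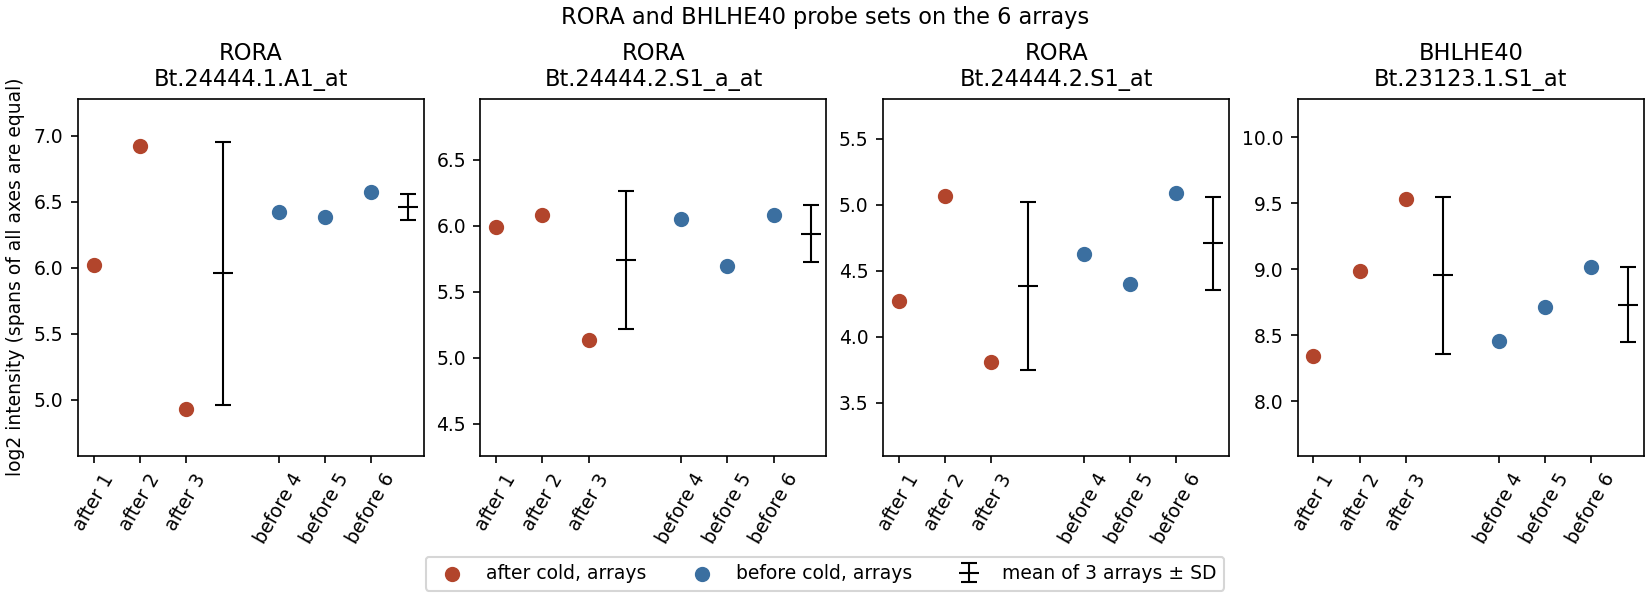
Log2 intensity (y axis) of the 3 RORA probe sets and the BHLHE40 probe set on each array (x axis), with arrays after cold in red and before cold in blue, and bars for the mean of 3 arrays ± SD. After 3 was the lowest array for every RORA probe set and the highest for BHLHE40, and the groups overlapped in all 4 panels. Of all probe sets, 35.7% had their lowest and 30.0% their highest value on after 3.

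RORA and BHLHE40 ordered the 6 arrays differently, and this rested largely on after 3. From the brightest to the dimmest RORA probe set, the Pearson correlation with BHLHE40 was -0.48, -0.67 and -0.20 over 6 arrays. Without after 3 it was 0.83, 0.18 and 0.86 over 5 arrays. On after 3 the log2 deviation from the mean over all arrays was -1.28, -0.70 and -0.73 in the RORA probe sets, in the order given above, and 0.69 in BHLHE40. On after 2 and before 6, both genes lay above their means, RORA by 0.71 and 0.36 in its brightest probe set and BHLHE40 by 0.14 and 0.18. On after 1 that RORA probe set lay below its mean, at -0.19, and so did BHLHE40, at -0.50. On before 4 and before 5 that RORA probe set deviated by 0.21 and 0.18, while BHLHE40 deviated by -0.39 and -0.13. The brightest RORA probe set and BHLHE40 thus lay on opposite sides of their means on 3 arrays, after 3, before 4 and before 5. They lay on the same side on the other 3. The other RORA probe sets differed from this. On before 5 both deviated by -0.15, on the side of BHLHE40, and on after 1 Bt.24444.2.S1_a_at deviated by 0.15, on the opposite side. Whether the changes of RORA and BHLHE40 after cold differ from each other was not tested.

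Each array after cold was also set against each array before it, since any of these pairs could come from a single animal. In the brightest RORA probe set, after 1 differed from the arrays before cold by -0.37 to -0.55 and after 3 by -1.45 to -1.64, while after 2 was higher by 0.35 to 0.54. Every way of matching the arrays therefore gave 2 pairs with lower and 1 with higher RORA signal in that probe set. For BHLHE40, after 3 was above all arrays before cold by 0.51 to 1.08 and after 1 differed from them by -0.11 to -0.67. After 2 was higher than before 4 and before 5, by 0.53 and 0.27, and differed from before 6 by -0.03. With the matched pairs as a block, none of the 6 matchings gave a call for any of the 4 probe sets. The smallest SE came with the matching 1-4, 2-6, 3-5. There the brightest RORA probe set had an SE of 0.32 (limma, adjusted p = 0.514) and BHLHE40 an SE of 0.22 (adjusted p = 0.619). In that fit 9.15% of all probe sets had an unadjusted p under 0.05, beside 0.188% to 5.14% in the other matchings. The labels do not say which matching holds. Over all alternatives run, the adjusted p of BHLHE40 lay between 0.619 and 1.00.

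**Figure D2:**
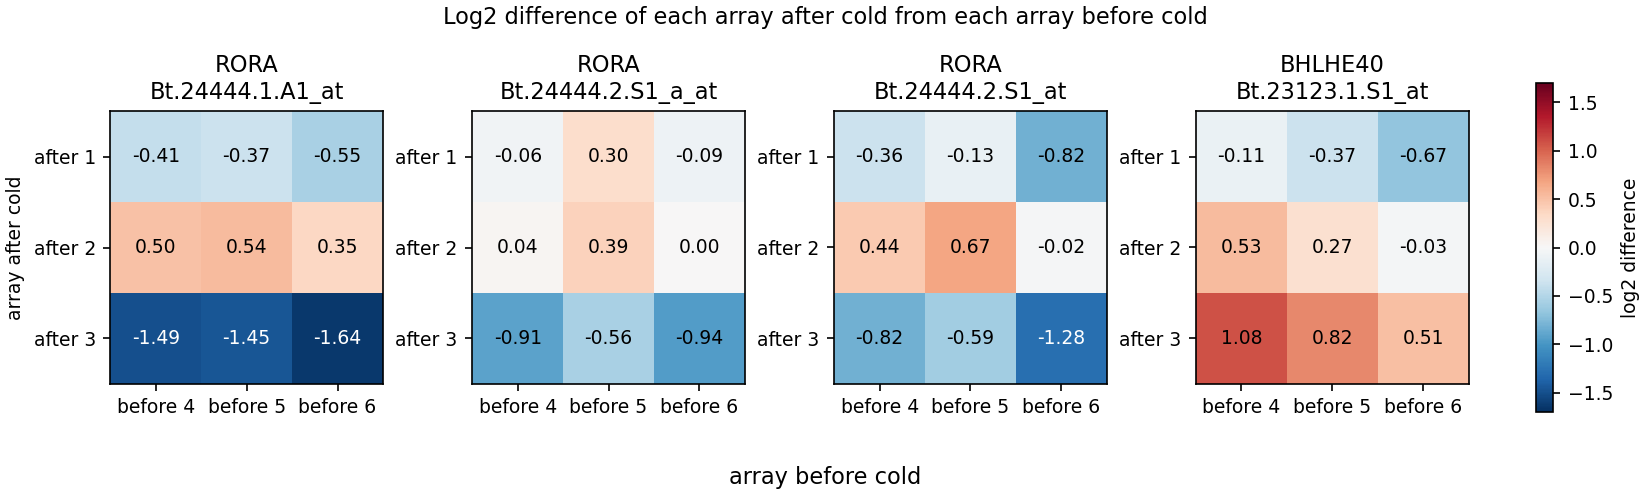
Log2 difference of each array after cold (rows) from each array before cold (columns), for the 3 RORA probe sets and the BHLHE40 probe set; red is higher and blue lower after cold. Rows differ more than columns: after 3 is blue throughout the RORA panels, down to -1.64, and red throughout the BHLHE40 panel, up to 1.08.

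The spread among arrays was wider after cold than before in all 4 probe sets. The ratio of the SD after cold to that before was 10.2 for the brightest RORA probe set, and 1.28% of all probe sets had a ratio at least as large. It was 2.43 and 1.80 for the other RORA probe sets and 2.10 for BHLHE40. Over all probe sets, 75.3% had a larger SD after cold, with a median ratio of 1.40. These ratios come from 3 arrays in each group and were not tested.

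Of the 23 listed clock genes, 4 were measured beside RORA and BHLHE40. These were CRY1, TIMELESS, HLF and NFIL3. The activators CLOCK, BMAL1 and NPAS2, the PER genes, the REV-ERB genes NR1D1 and NR1D2 and the BHLHE40 paralogue BHLHE41 had no probe set with their symbol alone and are not analysed here. None of the 4 passed the test. Their means were higher after cold in 2 and lower in 2, with a median difference of -0.02, beside 0.05 over the 6337 genes measured. Of those 6337 genes, 3566 had a higher mean after cold and 2771 (43.7%) a lower one.

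CRY1, a core repressor of CLOCK and BMAL1, had intensities of 95.6, 188 and 73.1 after cold (arrays 1, 2 and 3) and 107, 82.0 and 168 before (arrays 4, 5 and 6). Its highest values lay on after 2 and before 6 and its lowest on after 3, the array that was also lowest for RORA, and the groups overlapped. The difference of means was -0.05 ± 0.42 (SE; limma, adjusted p = 1.00), and its sign turned without after 1, after 3 or before 6 and with quantile normalization. HLF, an activator of the PAR bZIP family that carries clock output, had 69.4, 159 and 26.4 after cold and 74.7, 34.7 and 177 before. Its range over the arrays was the widest among the clock probe sets, 2.75 on the log2 scale, with the same arrays at the top and after 3 at the bottom. The difference was -0.22 ± 0.74, or 0.45 without after 3 and 0.38 without before 6.

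NFIL3, a bZIP repressor that competes with the PAR bZIP factors and is needed for innate lymphoid cells in mice, had intensities of 112, 215 and 132 after cold, against 123, 150 and 170 before. The difference was 0.0067 ± 0.32 (SE; limma, adjusted p = 1.00), and a dimmer probe set of the gene gave -0.05 ± 0.29. The first value was -0.27 without after 2. TIMELESS, a partner of CRY proteins that also protects replication forks, had 106, 101 and 129 after cold and 99.2, 127 and 86.9 before. After 3 held its highest value, as for BHLHE40, but before 5 was almost as high. It differed by 0.11 ± 0.27, with another probe set at 0.27 ± 0.27, and the first was -0.011 without before 6.

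**Figure D3:**
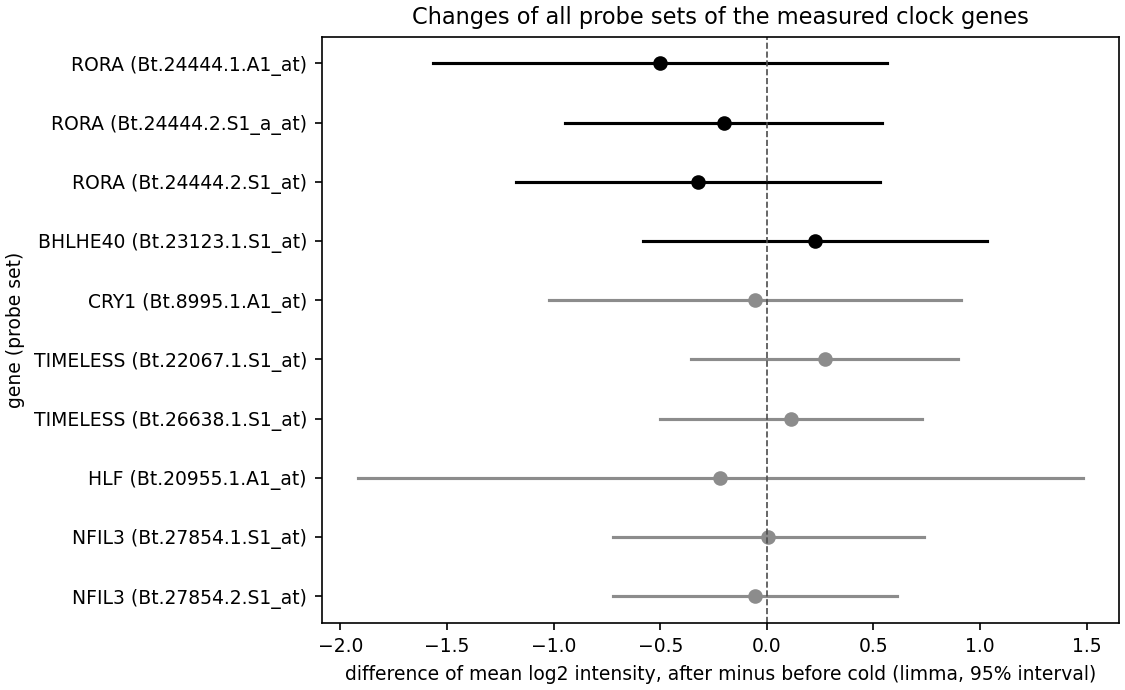
Difference of mean log2 intensity, after minus before cold (x axis), with its 95% interval from limma, for every probe set of RORA and BHLHE40 (black) and of the other measured clock genes (grey). Every interval includes 0, and those of RORA Bt.24444.1.A1_at and BHLHE40 run from -1.57 to 0.56 and from -0.58 to 1.03.

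Genes that act on the clock or with RORA and BHLHE40 did not pass the test either. Of 20 clock kinase and ubiquitin ligase genes 13 were measured, 8 with a higher and 5 with a lower mean after cold and a median difference of 0.16. The energy sensor kinase subunit PRKAA1, which phosphorylates CRY1 in mice, differed by -0.58 ± 0.43 (SE; limma, adjusted p = 1.00) and had intensities of 42.8, 103 and 31.8 after cold against 67.3, 75.9 and 90.6 before, with after 2 highest and after 3 lowest, as in the brightest RORA probe set. FBXW11, a ubiquitin ligase subunit that targets PER proteins, differed by 0.45 ± 0.33, and the casein kinase 2 subunit CSNK2A2 by 0.31 ± 0.26. On leaving out each array, PRKAA1 ran from -1.07 to -0.22 and FBXW11 from 0.19 to 0.68.

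Of 27 coregulators 14 were measured, 4 higher and 10 lower, with a median of -0.09. NAMPT, which makes NAD for the clock-linked deacetylase SIRT1, had 33.9, 56.2 and 27.7 after cold and 48.2, 60.3 and 66.5 before. Only after 2 reached into the range of the arrays before cold, and the difference was -0.62 ± 0.33 (SE; limma, unadjusted p = 0.0919, adjusted p = 1.00), with a range of -0.92 to -0.41 on leaving out each array. The PER complex protein SFPQ differed by -0.62 ± 0.67, or 0.13 without after 3, and the histone methyltransferase subunit WDR5 by 0.28 ± 0.26, or 0.14 to 0.37 on leaving out each array.

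RORA belongs to the nuclear receptors, and of 32 others listed 12 were measured, 8 higher and 4 lower with a median of 0.15. PPARG, a receptor for fatty acid ligands, differed by -0.37 ± 0.28 (SE) without overlap of the groups, at an intensity that only 5.66% of probe sets fell below. The glucocorticoid receptor NR3C1 differed by -0.50 ± 0.48 and the thyroid hormone receptor THRA by 0.42 ± 0.37. On leaving out each array, NR3C1 ran from -0.99 to -0.09, THRA from 0.17 to 0.73 and PPARG from -0.48 to -0.16. Each of these had an adjusted p = 1.00 in limma.

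Of 33 other E-box and helix-loop-helix factors 21 were measured, 17 with a higher and 4 with a lower mean and a median of 0.16. Of all 6337 genes measured, 3566 had a higher mean. ID2, an inhibitor of helix-loop-helix factors that innate lymphoid cells need in mice, had intensities of 673, 702 and 592 after cold, against 912, 800 and 915 before. The groups did not overlap, and the difference was -0.42 ± 0.24 (SE; limma, unadjusted p = 0.119, adjusted p = 1.00). MAX, the partner of MYC, differed by 0.40 ± 0.27 and the E protein TCF3 by 0.32 ± 0.26, with ranges of 0.26 to 0.53 and 0.19 to 0.45 on leaving out each array.

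Of 22 hypoxia-induced genes, a group to which BHLHE40 is known to belong, 16 were measured. Of these 9 were higher and 7 lower, with a median of 0.02. The mitophagy receptor BNIP3L differed by -0.63 ± 0.36 (SE), the collagen prolyl hydroxylase P4HA1 by -0.52 ± 0.33 and the glycolytic enzyme LDHA by -0.46 ± 0.30, while BHLHE40 itself had a higher mean. On leaving out each array, BNIP3L ran from -0.97 to -0.30, P4HA1 from -0.84 to -0.30 and LDHA from -0.71 to -0.30. Of 23 genes of type 17 and innate lymphoid cells, which use RORA in mice, 6 were measured, 4 higher and 2 lower with a median of 0.11. ID2 is a member of that list too, STAT3 differed by 0.26 ± 0.24 without overlap and BATF by 0.37 ± 0.35, or 0.12 to 0.61 on leaving out each array. Each of these had an adjusted p = 1.00 in limma.

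Markers of T cells and NK cells, which could carry RORA, were set beside it. Of 19 T cell markers 16 were measured. Their median deviation from their means was 0.26, -0.03 and -0.01 on after 1, 2 and 3. It was 0.34, -0.36 and -0.08 on before 4, 5 and 6. Single members differed from this median. Whether the content of such cells bears on the RORA values was not tested. On after 3 lay the lowest value of 3 of the 16 T cell markers, CD3G, CD247 and CD28. The same held for 3 of 9 NK and cytotoxic markers, KLRK1, GZMB and CD244. These markers were named after their values were seen. Over all probe sets, 35.7% had their lowest value on after 3. The count was 1 of 2 for gamma delta T cell markers, 4 of 8 for monocyte and 2 of 4 for eosinophil and basophil markers. It was 0 of 5 for B cell, 0 of 8 for neutrophil, 0 of 2 for platelet and 0 of 3 for red cell markers. CD3G, a CD3 subunit gene of the T cell receptor complex, had intensities of 3078, 2656 and 928 after cold, against 3444, 2449 and 3066 before. For the 9 of 12 NK and cytotoxic markers measured, the median deviation was 0.66, -0.42 and -0.11 after cold and 0.16, -0.05 and -0.56 before. The mean log2 level of the T cell list ran from 9.73 to 9.99 after cold and from 9.42 to 10.1 before, and that of the NK and cytotoxic list from 7.19 to 8.11 after cold and from 7.22 to 7.72 before. The 2 gamma delta T cell genes measured, a small basis, deviated by 0.36, -0.03 and -0.61 after cold and by 0.64, -0.42 and 0.06 before.

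Markers of other blood cells were compared in the same way. The mean log2 level of 8 monocyte markers ran from 8.35 to 8.51 after cold and from 8.57 to 9.09 before, with 2 means higher, 6 lower and a median difference of -0.44. That of 4 eosinophil and basophil markers ran from 8.11 to 9.25 after cold and from 8.87 to 9.44 before, with 0 higher and 4 lower. On after 3 the eosinophil and basophil list deviated by -0.80 and the list of 5 B cell markers by 0.45. Neutrophil markers had 7 of 8 means higher, B cell markers 4 of 5, red cell markers 3 of 3 and platelet markers 0 of 2. Of all 6337 genes measured, 3566 had a higher mean. None of these markers passed the test, and their part in the RORA and BHLHE40 values was not tested.

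The genes most like each probe set in their values over the 6 arrays were ranked by Pearson correlation among genes at or above the median intensity. For the brightest RORA probe set these were AUH (0.995), an RNA-binding enzyme of leucine breakdown, the cohesin subunit SMC3 (0.991), the centriole protein CEP120 (0.987), SERBP1 (0.986) and the nucleolar NOP56 (0.986). A correlation above 0.9 with this probe set was held by 400 of 4073 genes, or 9.82%. For the dimmest RORA probe set the closest were the splicing factor SF3B1 (0.998), the E protein TCF12 (0.997), PNISR (0.997), the mitochondrial transcription factor TFB2M (0.996) and RABEP1 (0.994), with 504 genes above 0.9. For the RORA probe set of middle brightness they were STT3A (0.987), SRI (0.986), PRPF3 (0.985), EID3 (0.981) and LYSET (0.981), with 139 above 0.9. The RORA probe sets thus shared 0 of these 5 closest genes, taken from many with a high correlation. Among themselves the RORA probe sets had correlations of 0.84 to 0.91 over 6 arrays, and of 0.34 to 0.87 without after 3.

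Above 0.9 with BHLHE40 were 31 genes, or 0.761%. The closest were UBAP2L (0.989), ATP9B (0.968), the telomere maintenance protein CTC1 (0.958), ZZEF1 (0.956) and the ubiquitin ligase RNF19B (0.955). Over the 6 arrays the first principal component, which held 68.4% of the variance of the table and did not follow the groups, had a correlation of -0.13 with BHLHE40. With RORA it was 0.88, 0.81 and 0.99 from the brightest to the dimmest probe set. These correlations rest on 6 arrays from 3 animals and are given as descriptions.

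**Figure D4:**
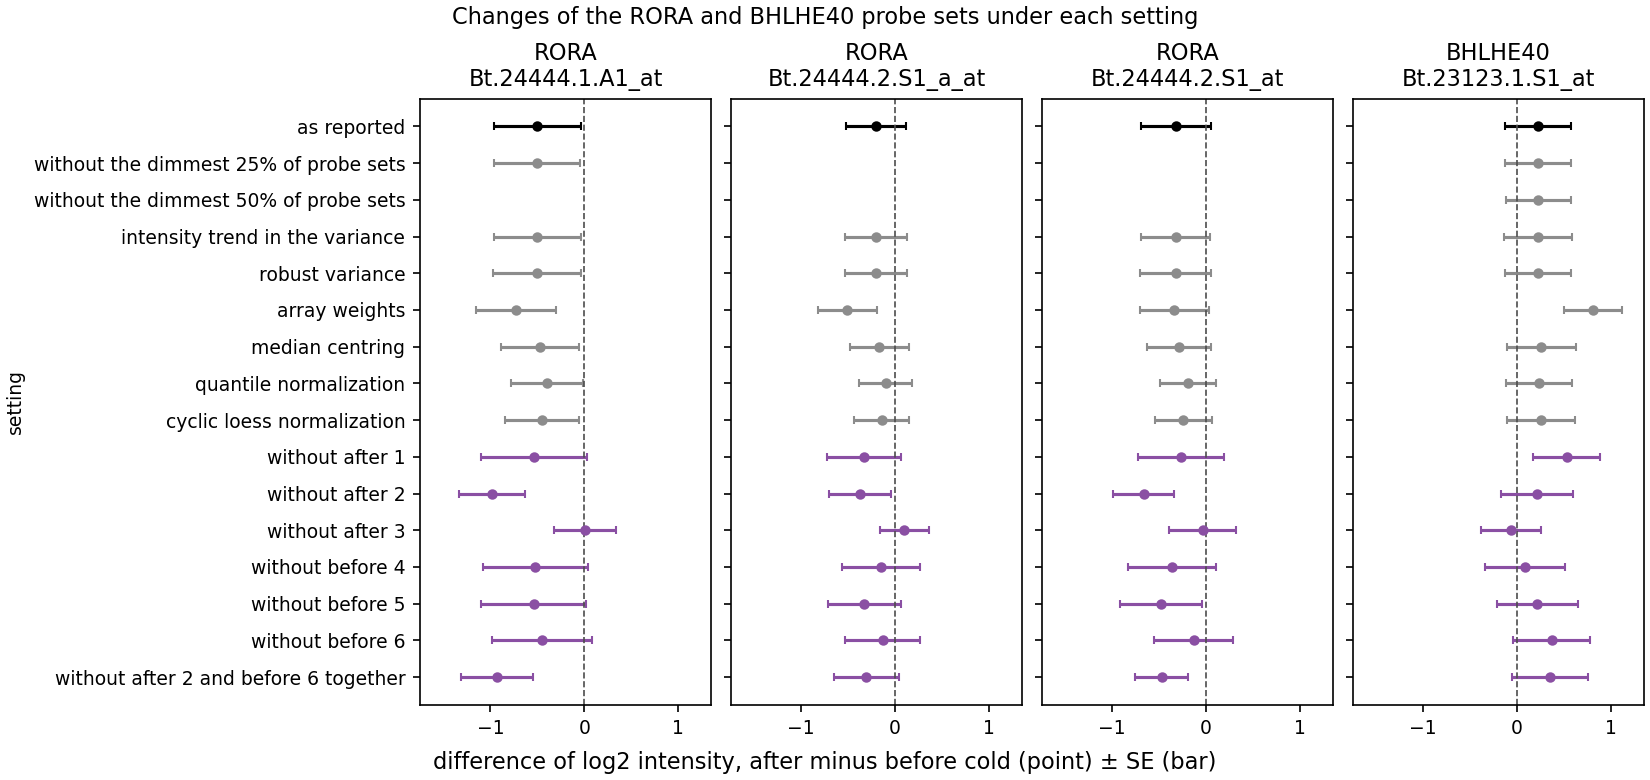
Difference of log2 intensity, after minus before cold (x axis), ± SE, for the 4 probe sets under each setting (y axis) except the pair blocks, with leaving out arrays in purple. Without after 3 the difference was near 0 in every panel, between -0.064 and 0.10, and without after 2 the brightest RORA probe set reached -0.98.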

How the data were processed

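White blood cell RNA was hybridised to a 1-colour Affymetrix bovine array after biotin labelling of 100 ng total RNA, per the labels' protocols. The authors deposited linear intensities, 1 per probe set and array. The submitters' processing notes name GCOS and RMA, without versions. A genome build and filters are not given in the sources used. Log2 values were used with no further normalization, pseudocount or filter. Of 12763 probe sets, 8125 had a single symbol in the platform annotation, 56 several and 4582 none. A gene other than RORA and BHLHE40 was represented by its probe set of highest mean. All probe sets were fitted with limma 3.58.1 in R 4.3.3, two-sided, without a block, with Benjamini-Hochberg adjustment and a threshold of 0.05. The fit was run on simulated data with independent noise in each probe set. These had no pattern shared by probe sets of an array and no pairing by animal, so they check the calculation only. The p-values treat the 6 arrays as separate although they come from 3 animals, and the number of arrays limits the precision.

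The members and gene lists were chosen with earlier results of these data known. The text names all measured clock genes, 3 genes of smallest p in each other pathway list and 5 genes most correlated with each probe set. Of the markers of highest mean in their lists it names only some, such as S100A8 and PF4. CD3D, CD4 and CD14 were added as markers after their values were seen. Alternatives were a filter on dim probe sets, variance models, array weights, normalizations, leaving out arrays, each of 6 matchings of arrays into pairs, and averaging the probe sets of each gene.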

Additional observations from a re-analysis of the deposited data

How the results depend on the processing

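No probe set, and none of the other clock genes, passed an adjusted p of 0.05 under any setting run with limma (count 0 throughout). Of 79 values of the RORA and BHLHE40 probe sets under the alternatives, 3 had the opposite direction and 3 an unadjusted p under 0.05. Those reversed without the after 3 array were 0.010 for Bt.24444.1.A1_at, 0.10 for Bt.24444.2.S1_a_at and -0.064 for BHLHE40. Those under 0.05 were Bt.24444.1.A1_at without after 2 and without after 2 and before 6 together (-0.93), and BHLHE40 with array weights (0.81). In those fits 14.0%, 9.67% and 5.19% of all probe sets were under 0.05. Leaving out each array gave -0.98 to 0.010, -0.38 to 0.10 and -0.67 to -0.038 for the RORA probe sets as ordered in the text and -0.064 to 0.53 for BHLHE40. Of 426 values of the other named genes 11 reversed. CRY1 was at 0.023 with quantile normalization, 0.044 without after 1, 0.24 without after 3 and 0.23 without before 6. HLF was at 0.45 without after 3 and 0.38 without before 6, SFPQ at 0.13 without after 3 and TIMELESS at -0.011 without before 6. NFIL3 was at -0.27 without after 2, -0.12 without before 4 and -0.16 without after 2 and before 6. Leaving out each array gave -0.44 to 0.24 for CRY1, -0.85 to 0.45 for HLF, -1.27 to 0.13 for SFPQ, -0.011 to 0.26 for TIMELESS and -0.27 to 0.20 for NFIL3. The cause was not tested. Leaving out after 2 and before 6 together was an alternative added after seeing the data. The labels give no number shared by the groups, so each of the 6 matchings was run as a replicate block, and it changed no call. The filter on the dimmest 25% kept the brightest RORA probe set (-0.50) and removed the other RORA probe sets, and that on 50% removed all 3. The part of background in dim signal was not measured.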
